A study of Mus musculus with 18 samples.

Results

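The comparison set ovarian cancer cells that carried the hairpin shNdufa5_1 and grew in medium from senescent cells (SCM) against cells that carried a control hairpin and grew in medium from proliferating cells (PCM). It used 6 of the 18 libraries of the study, 3 in each group, and covered the 11084 genes with a mean of at least 1 FPKM (fragments scaled to gene length and library depth) over all 18. The question was which genes of the knockdown cells in SCM lay at the level of the shControl PCM cells and which did not. All cells were KPCA.B, a mouse line labelled as high grade serous ovarian cancer, and all groups were given conditioned medium mixed in equal parts with fresh high-glucose DMEM that held serum, EGF and an insulin, transferrin and selenium supplement. SCM came from cells made senescent with cisplatin, and PCM came from proliferating cells treated with the solvent DMF. The shControl cells are labelled as wild type for Ndufa5, and the shNdufa5_1 cells as knocked down by 1 of a pair of hairpins. The 6 groups of the study were shControl, shNdufa5_1 and shNdufa5_2, each in PCM and in SCM. Since the groups compared differ in hairpin and in medium, the effect of one and the effect of the other cannot be told apart in this comparison alone. For that reason the values of shControl in SCM and of shNdufa5_1 in PCM stand beside them. The model has a single cell line and medium in place of senescent cells, a knockdown leaves part of the target RNA, and no label says that replicates were separate cultures. The p-values therefore measure the spread between these libraries, which may be technical.

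Ndufa5 encodes an accessory subunit of complex I, the enzyme that passes electrons from NADH into the respiratory chain and returns NAD+ to the cell. Senescent cells stop dividing but stay alive and secrete cytokines, chemokines, proteases and growth factors, and neighbouring tumour cells answer these signals through pathways such as NF-kB, interferon and stress signalling. Sterol synthesis, glycolysis and the stress responses are all known to be tied to the state of the respiratory chain.

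The depth read from the steps of low FPKM values was 17 to 20.8 M fragments (M for mega) in the shNdufa5_1 SCM libraries and 15.3 to 33.8 M in the shControl PCM libraries. Replicates correlated at 0.988 to 0.99 and at 0.987 to 0.989 on the log2 scale. Of 13 markers of ovarian carcinoma epithelium, 7 passed the filter on low values, the keratins Krt7, Krt8, Krt18 and Krt19 with Msln, Cldn3 and Pax8, while Cdh1, Epcam, Cldn4 and Cldn7 did not, with Cdh1 at 0.201 to 0.439 FPKM in shControl PCM and 1.2 to 1.37 in shNdufa5_1 SCM. Pax8 lay at 10.3 to 11.6 FPKM in shControl PCM and 7.49 to 8.02 in shNdufa5_1 SCM, and Muc16 and Wt1 were listed at 0 in all 6 libraries. Summed FPKM of these markers was 1130.0 to 1220.0 in shControl PCM and 2070.0 to 2140.0 in shNdufa5_1 SCM. Markers of other cell types summed to far less: 8.0 to 9.05 against 11.6 to 12.2 FPKM for 9 immune markers, of which 7, Ptprc among them, were below 0.1 in every library. Endothelial markers summed to 3.56 to 4.49 against 4.38 to 5.78, fibroblast markers to 3.42 to 4.07 against 3.87 to 4.37, and mesothelial markers to at most 0.0675. In bulk RNA, fewer cells of a kind and less RNA per cell cannot be told apart. A predicted gene, Gm23935, took 5.13 to 8.75% of the summed FPKM in shControl PCM and 9.28 to 17.1% in shNdufa5_1 SCM. Its share was 16.3 to 21.8% in shControl SCM and 10.6 to 27.1% in shNdufa5_1 PCM. Counts with it left out of the scaling are given below. The deposited values were scaled to a common median gene. Setting the FPKM sums equal instead moved the median difference of all genes by -0.17 on the log2 scale, so directions below are relative to the median gene.

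Ndufa5 itself (chr6:24518666-24528013, minus strand, GRCm38, a protein-coding gene) was measured first, as a check of the labels. It lay at 15.2, 19.0 and 22.1 FPKM in shControl PCM and at 6.46, 6.78 and 6.23 FPKM in shNdufa5_1 SCM. The groups did not overlap, and the knockdown group stood at 34.6% of the control mean. The difference was -1.39 ± 0.12 (SE, n = 3 per group) as log2(FPKM + 1), with a limma adjusted p of 1.2e-07. The exact two-sided permutation test of the FPKM values returned p = 0.1, which is as low as 3 libraries against 3 can reach. Ndufa5 was as low in shNdufa5_1 PCM, at 6.23 to 6.85 FPKM, and higher in shControl SCM, at 20.9 to 26.2 FPKM. The libraries labelled shNdufa5_2 in SCM held 14.6 to 20.2 FPKM, which overlapped shControl PCM. No difference from the shNdufa5_2 groups is given here. Their libraries did enter the filter on low values and the spread shared by all groups in the fit, and so every SE, interval and adjusted p.

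Most genes differed by a small amount. limma with Benjamini-Hochberg adjustment called 5920 of 11084 genes (53.4%) at an adjusted p under 0.05, of which 2930 (26.4%) were higher and 2990 (27.0%) lower in shNdufa5_1 SCM. At equal FPKM sums the calls were 1385 higher and 4271 lower, and without Gm23935 in those sums 2388 higher and 3761 lower. The 2 groups of libraries did not overlap in 5806 of the 5920 called genes, which is 52.4% of all 11084 genes tested. Most calls were small: 126 genes were at least 2-fold higher and 96 at least 2-fold lower, and the median absolute difference was 0.24 with a median SE of 0.08. A gene was counted as level with shControl PCM where the 95% interval of its difference lay wholly between -0.5 and 0.5, which held for 6481 genes (58.5%). Of these, 2536 were called as well, so a called gene can still lie within the margin. A further 1219 genes were neither called nor placed within the margin. The plot of difference against adjusted p shows both directions.

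**Figure D1:**
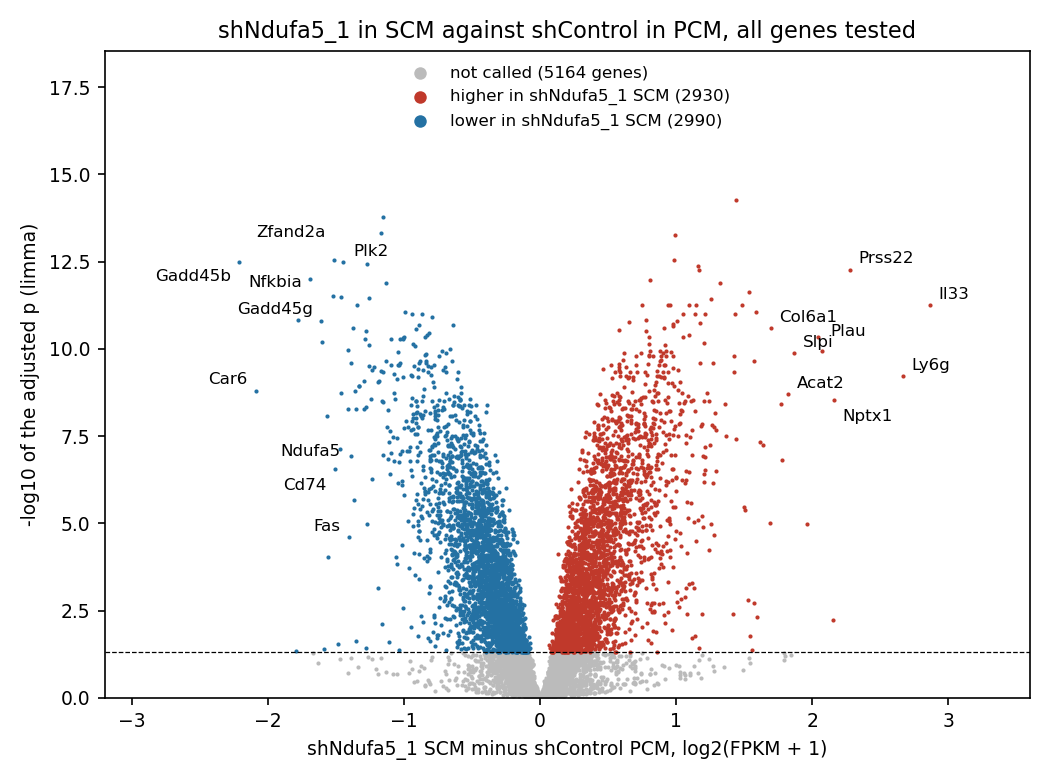
Each point is 1 of 11084 genes, with the difference between shNdufa5_1 SCM and shControl PCM on log2(FPKM + 1) on the x axis and -log10 of the limma adjusted p on the y axis. Red marks the 2930 genes called higher and blue the 2990 called lower, the dashed line is the adjusted p of 0.05, and Il33 (2.87) and Gadd45b (-2.21) lie farthest out among the named genes.

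Among the named genes the largest rise was that of Il33. Il33 (chr19:29925114-29960718, plus strand), an alarmin cytokine of epithelial cells, lay at 4.39, 5.06 and 3.58 FPKM in shControl PCM and at 38.8, 35.7 and 38.6 FPKM in shNdufa5_1 SCM. Its difference was 2.87 ± 0.10 (adjusted p = 5.73e-12). Either step alone left it in between: shControl SCM held 10.3 to 12.6 FPKM and shNdufa5_1 PCM 12.7 to 16, and the libraries of these 2 groups overlapped neither end. Ly6g, a GPI-anchored surface protein best known from neutrophils, came next at 0.362 to 0.466 FPKM against 7.37 to 8.39 FPKM, a difference of 2.67. Prss22, a serine protease of epithelia, rose from 10.4 to 11.8 FPKM up to 57 to 59.7 FPKM, a difference of 2.28. Plau (chr14:20836660-20843385, plus strand), the urokinase that activates plasminogen, lay at 2.28, 2.45 and 2.26 FPKM against 12.9, 13.9 and 12.4 FPKM, a difference of 2.07 ± 0.10 (adjusted p = 1.12e-10). Unlike Il33, Plau was already at 10.8 to 13.1 FPKM in shNdufa5_1 PCM and at only 2.73 to 3.7 FPKM in shControl SCM. Nptx1, a secreted pentraxin, had the same pattern, with 4.84 to 5.04 FPKM in shNdufa5_1 PCM and 5.12 to 5.44 in shNdufa5_1 SCM against 0.361 to 0.491 in shControl PCM.

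The remaining genes among the 15 largest rises ran from 2.04 down to 1.59. They were Mgp (2.04), a matrix protein that limits calcification, Slpi (1.87), a secreted inhibitor of leukocyte proteases, Acat2 (1.82), an acetyl-CoA thiolase at the head of sterol synthesis, and Prl2c2 (1.78), a prolactin-family hormone also called proliferin. Aqp1 (1.77) is a water channel, Col6a1 (1.70) a chain of collagen VI, Ccl7 (1.69) a chemokine for monocytes, Tppp3 (1.64) a tubulin-binding protein, Crip1 (1.62) a small LIM protein and Ccnf (1.59) the cyclin F of a ubiquitin ligase. Col6a1 depended little on the hairpin in PCM: it lay at 4.05 to 4.42 FPKM in shControl PCM, 4.69 to 5.82 in shNdufa5_1 PCM, 9.76 to 10.8 in shControl SCM and 15.4 to 16.6 in shNdufa5_1 SCM. Over the 15 genes the median difference from shControl PCM was 0.80 for shControl SCM, 1.20 for shNdufa5_1 PCM and 1.82 for shNdufa5_1 SCM. These 3 differences share the shControl PCM libraries and are given side by side as a description.

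Gadd45b, Car6 and Nfkbia were among the 15 largest falls, and all 3 were also low in the knockdown cells in PCM. Gadd45b (chr10:80930073-80932204, plus strand), a stress-induced regulator of growth arrest and a known NF-kB target, lay at 49.6, 46.6 and 48.3 FPKM in shControl PCM and at 10.6, 8.86 and 9.49 FPKM in shNdufa5_1 SCM. Its difference was -2.21 ± 0.06 (adjusted p = 3.33e-13). shNdufa5_1 PCM held 8.42 to 9.43 FPKM and shControl SCM 51.2 to 55.8, so the 2 hairpins stood far apart in both media. Car6 (chr4:150187015-150201332, minus strand), a secreted carbonic anhydrase, went from 14.1, 15.5 and 13.6 FPKM to 2.92, 2.06 and 2.96 FPKM, a difference of -2.09 ± 0.12. In shControl SCM it stayed at 14.0 to 15.6 FPKM, and in shNdufa5_1 PCM it was at 3.74 to 5.3. Nfkbia (chr12:55489410-55492647, minus strand), the inhibitor IkB-alpha that NF-kB itself induces, lay at 117, 121 and 108 FPKM against 33.9, 37.2 and 33.9 FPKM, a difference of -1.69 ± 0.05 (adjusted p = 9.76e-13). Its values in shNdufa5_1 PCM, 28.6 to 31.3 FPKM, were lower still.

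The other large falls were Snhg15 (-1.78), a long non-coding RNA that hosts a small nucleolar RNA, Gadd45g (-1.61), a relative of Gadd45b, Nfkbie (-1.61), the inhibitor IkB-epsilon, and H2-K2 (-1.56), a class I gene whose fragments may be shared with near-identical H2 genes. Avil (-1.52) is the actin-binding protein advillin, Zfand2a (-1.51) an arsenite- and heat-inducible zinc finger protein, Cd74 (-1.51) the invariant chain of class II, Trmt61b (-1.46) a mitochondrial tRNA methyltransferase and Jun (-1.46) a subunit of AP-1. Plk2 (-1.45), a polo-like kinase induced by p53, Fas (-1.41), a death receptor, and Hist1h1c (-1.39), a linker histone, completed the 15. Fas was low throughout, at 1.78 to 2.85 FPKM against 0.227 to 0.295 FPKM. Over these 15 genes the median was -0.40 for shControl SCM, -1.46 for shNdufa5_1 PCM and -1.52 for shNdufa5_1 SCM, each against shControl PCM.

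SCM alone moved 291 genes by at least 2-fold in shControl with a limma call, 254 up and 37 down, in a comparison where 61.9% of all genes were called, 31.7% higher and 30.2% lower. These 291 genes were sorted by where shNdufa5_1 SCM lay against shControl PCM. A gene was back at the level where its interval lay within -0.5 to 0.5, and still off where it was called in the direction of the SCM response and not within the margin. It was past the level where it was called in the opposite direction, and undetermined otherwise. Of the 254 that had risen, 75 (29.5%) were back at the level, 116 (45.7%) were still off it, 4 (1.57%) were past it and 59 (23.2%) were undetermined. Of the 37 that had fallen, 8 (21.6%) were back, 19 (51.4%) were still off, 0 were past and 10 (27.0%) were undetermined. The median of the genes that had risen was 1.15 in shControl SCM and 0.42 in shNdufa5_1 SCM, and that of the genes that had fallen was -1.17 and -0.60. The share of all genes whose interval lay within the margin was 58.5%, given with no test because the responsive genes were chosen on the same shControl libraries. Of the 254, 97 have names of short RNAs, clones or pseudogenes, among them 53 of the 59 undetermined genes. The counts moved with the scaling: of 1006 responsive genes at equal FPKM sums 250 were back and 661 off, of 175 under quantile normalization 19 were back and 90 off, and of 158 with the trend in GC content and length removed 34 were back and 75 off.

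**Figure D2:**
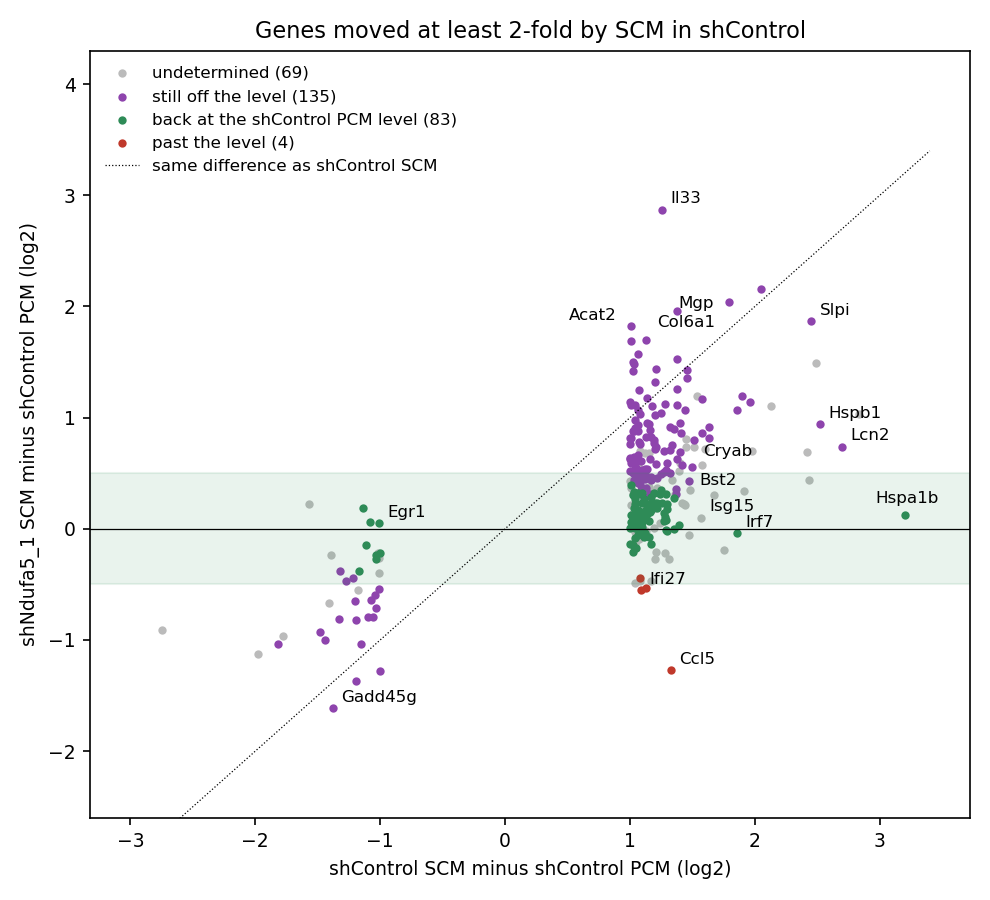
Each point is 1 of the 291 genes that SCM moved at least 2-fold in shControl, with that response on the x axis and the difference of shNdufa5_1 SCM from shControl PCM on the y axis, both on log2(FPKM + 1). Green points (83) are back at the level, with their intervals inside the shaded margin, purple points (135) are still off it, red points (4) are past it and grey points (69) are undetermined. Genes on the dotted line differ from shControl PCM as much as shControl SCM does, and Mgp lies above it (2.04 against 1.79).

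Genes back at the level included the strongest SCM response of all. Hspa1b (chr17:34956436-34959238, minus strand), an inducible Hsp70, lay at 1.59, 1.24 and 0.985 FPKM in shControl PCM, at 21.3, 19.4 and 18.7 FPKM in shControl SCM and at 1.54, 1.74 and 1.11 FPKM in shNdufa5_1 SCM. Only the shControl SCM libraries were high, and the other groups overlapped. The difference of shNdufa5_1 SCM from shControl PCM was 0.12, with a 95% interval of -0.23 to 0.47. Hspa1b shares fragments with the near-identical Hspa1a, so its own level is uncertain. Irf7 (chr7:141262706-141266481, minus strand), the factor that amplifies interferon production, lay at 1.35, 1.44 and 1.75 FPKM in shControl PCM, at 7.29 to 8.89 FPKM in shControl SCM and at 1.7, 1.32 and 1.33 FPKM in shNdufa5_1 SCM. Its difference was -0.04, with an interval of -0.24 to 0.17, and the groups overlapped. Ifitm3, a membrane protein that blocks virus entry, lay at 242 to 267 FPKM, 615 to 654 FPKM and 287 to 309 FPKM in the same order. At 0.22 (adjusted p = 0.00428) it was called higher and yet within the margin, and the call was lost under quantile normalization (0.11) and at equal FPKM sums (0.03).

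Many of the genes back at the level encode parts of the translation machinery. The genes of this class were also abundant, with a median mean FPKM of 150 against 21.2 for genes still off. Among the 39 cytosolic ribosomal protein genes that SCM raised at least 2-fold in shControl, 28 were back at the level and 11 were still off it. Rplp0 (chr5:115559467-115563727, plus strand), the base of the ribosomal stalk, lay at 1647, 1762 and 1696 FPKM in shControl PCM, at 3584, 3737 and 3610 in shControl SCM and at 1792, 1673 and 1708 in shNdufa5_1 SCM. Its difference from shControl PCM was 0.02 (interval -0.05 to 0.09), and the groups overlapped. In shNdufa5_1 PCM it was lower than in any of these, at 1253 to 1314 FPKM. The stalk proteins Rplp1 (0.07) and Rplp2 (0.31) and the initiation factor subunit Eif3f (0.23) were also back, and at equal FPKM sums Rplp2 (0.12) and Eif3f (0.05) were not called. Under quantile normalization Rplp0 (-0.27) and Rplp1 (-0.22) turned in sign and were called lower. Over the 75 genes that had risen and were back, shNdufa5_1 PCM was called lower than shControl PCM in 55, in a comparison where 27.1% of all genes were called lower. Their median was -0.26 for shNdufa5_1 PCM, and 0.41 for shNdufa5_1 SCM against shNdufa5_1 PCM. Most of these genes thus stood below the control in PCM and near it in SCM, as the plot of values by library shows for Rplp0. Of the 116 that had risen and were still off, shNdufa5_1 PCM was called higher in 53 and lower in 5. In that comparison 2839 of 11084 genes were called higher. The medians of the 116 were 0.23 and 0.53 for the same 2 differences. The classes were set on the sum of these 2 differences, so unlike levels in PCM follow in part from the sorting.

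The 8 genes that had fallen and were back include several RNA-binding proteins. Egr1 (chr18:34859823-34864984, plus strand), an immediate early transcription factor, lay at 43.9, 41.8 and 42.7 FPKM in shControl PCM, at 19.9, 21.7 and 20.6 FPKM in shControl SCM and at 44.5, 45.2 and 43.0 FPKM in shNdufa5_1 SCM. The first and last of these groups overlapped, and the difference was 0.05 (interval -0.03 to 0.13). Sfpq, a splicing factor and paraspeckle protein, lay at 35.4 to 38.5, 15.1 to 18.7 and 38.4 to 39.6 FPKM in the same order, and its paraspeckle partner Pspc1 at 5.01 to 5.6, 1.63 to 2.1 and 5.92 to 6.51 FPKM. Errfi1 (-0.15), which restrains the EGF receptor, Ddx3x (-0.27), an RNA helicase, Eif5 (-0.38), an initiation factor, Nabp1 (-0.24), a single-stranded DNA-binding protein, and Mgat2 (-0.22), an enzyme of N-glycan synthesis, completed the 8. The call of Mgat2 was lost without shControl PCM replicate 1 (-0.17) or shNdufa5_1 SCM replicate 3 (-0.18), and that of Nabp1 without shNdufa5_1 SCM replicate 1 (-0.19).

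**Figure D3:**
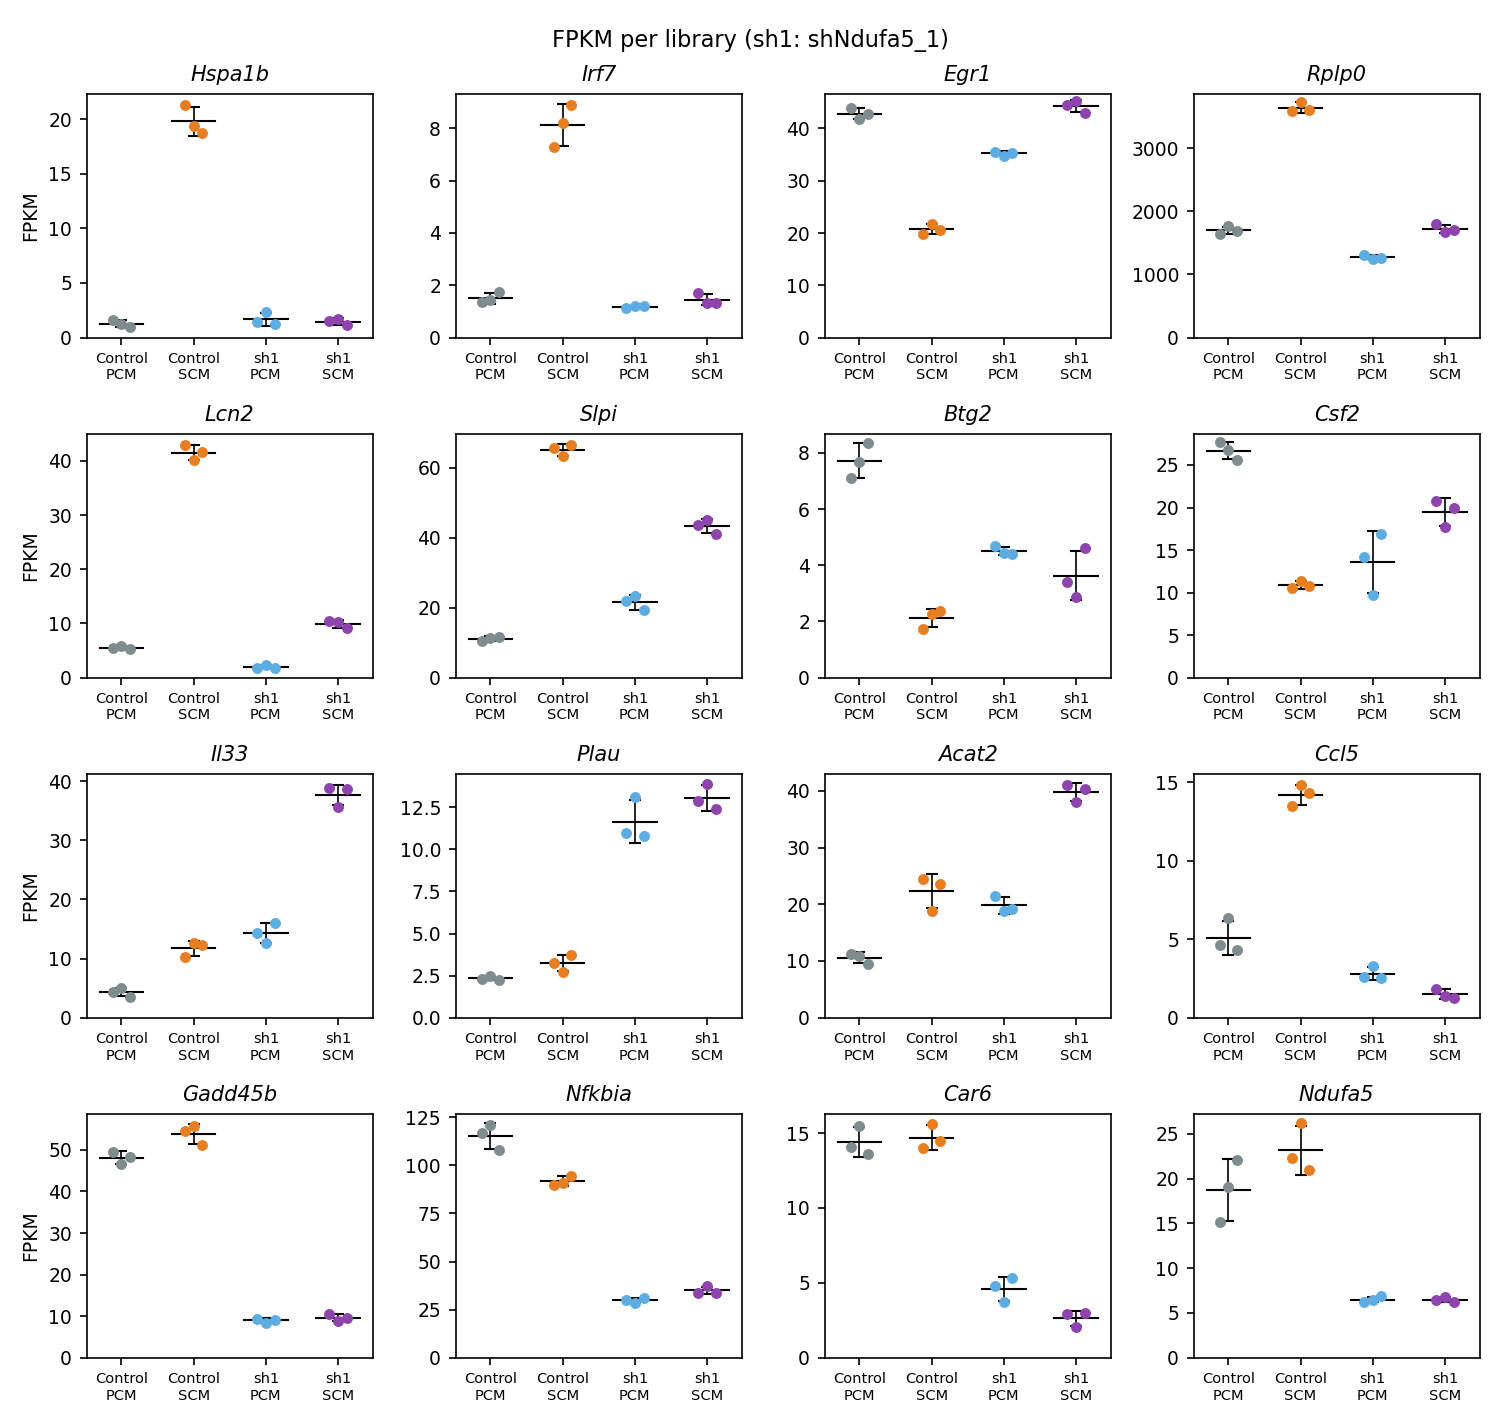
FPKM of 16 genes in the 4 groups, with 1 point per library, a line at the group mean and bars of 1 SD (n = 3), each axis starting at 0. In the top row shNdufa5_1 SCM lies at the shControl PCM level, in the second row it lies between shControl PCM and shControl SCM, and the lower rows hold genes far from shControl PCM, with Ndufa5 last.

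Lcn2 and Slpi, the 2 genes of the secreted defence list that SCM raised at least 2-fold in shControl, stayed off the level. Lcn2 (chr2:32384633-32388252, minus strand), a lipocalin that binds bacterial siderophores and is a marker of epithelial inflammation, lay at 5.45, 5.83 and 5.35 FPKM in shControl PCM, at 42.9, 40.1 and 41.6 FPKM in shControl SCM and at 10.5, 10.2 and 9.09 FPKM in shNdufa5_1 SCM. The groups did not overlap, and the difference was 0.74 ± 0.08 (adjusted p = 2.11e-06). From its own level of 1.8 to 2.3 FPKM in shNdufa5_1 PCM, Lcn2 rose by 1.88, so it answered SCM and still ended nearer to shControl PCM than to shControl SCM. Slpi lay at 10.4, 11.4 and 11.6 FPKM in shControl PCM, at 63.3 to 66.6 FPKM in shControl SCM and at 43.6, 45.0 and 41.1 FPKM in shNdufa5_1 SCM. Aqp8 (1.07), a water and peroxide channel, and Mgp (2.04) also stayed off, and Mgp at 18.5 to 21.9 FPKM lay above its 16.1 to 17.2 FPKM in shControl SCM.

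Of the 4 cytosolic heat shock genes that SCM raised at least 2-fold in shControl, Hspa1b was back and the other 3 were still off. Hspb1, a small heat shock protein, lay at 5.72 to 6.04 FPKM in shControl PCM, 35.4 to 43.1 in shControl SCM and 9.76 to 15.4 in shNdufa5_1 SCM, a difference of 0.94 ± 0.19 (adjusted p = 0.000493). Cryab, another small heat shock protein, lay at 23.6 to 27.4, 70.3 to 78.3 and 37 to 40 FPKM in the same order, a difference of 0.56. Hspa8, the constitutive Hsc70, was at 113 to 117, 251 to 261 and 211 to 229 FPKM, a difference of 0.94. The mitochondrial leucyl-tRNA synthetase gene Lars2 (1.19) was also off, but its libraries spread from 52.4 to 97.6 FPKM in shNdufa5_1 SCM and moved with Gm23935, so its value is uncertain.

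Genes that SCM lowered and that stayed low include Gadd45g (chr13:51846678-51848468, plus strand), at 169, 175 and 178 FPKM in shControl PCM, 68.4, 71.6 and 60.1 FPKM in shControl SCM and 57.2, 55.5 and 56.9 FPKM in shNdufa5_1 SCM. It was as low in shNdufa5_1 PCM, at 54.9 to 58.5 FPKM. Srsf3, an SR splicing factor, lay at 55.9 to 57.5, 19.9 to 20.6 and 27 to 28.4 FPKM in shControl PCM, shControl SCM and shNdufa5_1 SCM, a difference of -1.0 ± 0.04 (adjusted p = 4.71e-11). Btg2, an antiproliferative gene, lay at 7.11 to 8.35, 1.74 to 2.36 and 2.88 to 4.6 FPKM, a difference of -0.93. Csf2, the cytokine GM-CSF, lay at 25.6 to 27.7, 10.5 to 11.4 and 17.7 to 20.8 FPKM, a difference of -0.44 ± 0.13 (adjusted p = 0.0107). All 3 of these ended between shControl PCM and shControl SCM. Orc2 (-0.65) of the origin recognition complex and Taf1a (-1.37), a subunit of the RNA polymerase I factor SL1, also stayed low.

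A part of the genes still off had gone further from shControl PCM than shControl SCM had. Of the 116 that had risen and were still off, 76 were called lower than shControl SCM, 28 were not called against it and 12 were called higher, in a comparison where 59.8% of all genes were called, 28.7% higher and 31.1% lower. Among those 12 were Il33, with a difference of 1.61 from shControl SCM, and Acat2 (0.82), Ccl7 (0.68), Col6a1 (0.57), the aldolase Aldoc (0.51), Mvd (0.40), Mgp (0.25) and the tubulin Tubb5 (0.23). Among the 19 that had fallen, Gadd45g (-0.23) and the splicing factor Tra2b (-0.27) lay beyond shControl SCM. The 116 and the 19 were chosen on the same shControl SCM libraries that this comparison subtracts. Calls that place a gene short of shControl SCM therefore follow in part from that choice.

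Past the level were the named genes Ccl5 and Ifi27. Ccl5 (chr11:83525778-83530518, minus strand), a chemokine for T cells and monocytes, lay at 4.64, 6.34 and 4.29 FPKM in shControl PCM, at 13.5, 14.8 and 14.3 FPKM in shControl SCM, at 2.58, 3.3 and 2.54 FPKM in shNdufa5_1 PCM and at 1.84, 1.4 and 1.28 FPKM in shNdufa5_1 SCM. SCM thus raised it in shControl, and it was lowest of all in shNdufa5_1 SCM, with a difference of -1.27 ± 0.17 from shControl PCM (adjusted p = 1.07e-05). Ifi27, an interferon-induced protein of mitochondria and the nuclear envelope, lay at 41.0 to 42.3 FPKM, 88.7 to 90.6 FPKM and 27.5 to 29.5 FPKM in shControl PCM, shControl SCM and shNdufa5_1 SCM, a difference of -0.55. Isg15, a ubiquitin-like interferon product, stayed undetermined: it lay at 4.4 to 5.01, 13.7 to 20 and 3.61 to 6.57 FPKM, and its difference of 0.10 had an interval of -0.43 to 0.63. Gdf15 (-0.27), a stress-induced cytokine, and Cd68 (-0.22), a lysosomal membrane protein, were undetermined as well.

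Gene lists are described below by counts and medians of the difference between shNdufa5_1 SCM and shControl PCM, against 26.4% higher, 27.0% lower and a median of -0.01 over all genes tested. Medians of shControl SCM and shNdufa5_1 PCM, which share the shControl PCM libraries, follow in that order where given. These 2 medians are on the deposited scaling only and were not computed at equal FPKM sums. The sums were 437859 to 484520 in shControl SCM and 290242 to 303782 in shControl PCM. How far the shControl SCM medians depend on the scaling was not tested.

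On the deposited scaling, the lists of ribosomal proteins and of nuclear respiratory chain subunits had medians above 0.5 in shControl SCM. In shNdufa5_1 SCM their medians were nearer to 0. Of 77 ribosomal protein genes, 44 were higher, 5 lower and 28 not called, with 59 within the margin and a median of 0.20, against 1.01 and -0.23 in shControl SCM and shNdufa5_1 PCM. At equal FPKM sums 12 were higher and 9 lower, with a median of 0.01. Against shControl SCM, 73 of the 77 were lower, where 31.1% of all genes were. Rpl37a stood out at 1.43, with 210 to 246 FPKM in shNdufa5_1 SCM, 218 to 249 in shControl SCM and 72.9 to 88.6 in shControl PCM, so that it overlapped shControl SCM. Ribosomal proteins have many processed pseudogenes, so fragments may be split among copies. Of 34 nuclear complex I subunits other than Ndufa5, 6 were higher, 7 lower and 21 not called, 30 were within the margin, and the medians were -0.01, 0.62 and -0.26. At equal FPKM sums 0 were higher and 13 lower. Ndufs5 (-0.40) and Ndufb6 (-0.37) were lower and Ndufv2 (0.41), a subunit with an iron-sulfur cluster, was higher, a call lost at equal FPKM sums (0.22). Ndufs8, a core subunit, lay at 96.0 to 99.8 FPKM in shControl PCM, 184 to 193 in shControl SCM and 93.0 to 101 in shNdufa5_1 SCM. Of 38 subunits of complexes II to V, 9 were higher and 5 lower, with a median of -0.03, and at equal FPKM sums 0 were higher and 20 lower, with a median of -0.22. Uqcrq of complex III was the lowest of them, at 99.8 to 102 FPKM against 53.8 to 57.5 FPKM (-0.84), as low as in shNdufa5_1 PCM at 58.1 to 58.7. Of 12 mitochondrially encoded messenger RNAs 3 were higher, mt-Nd1 (0.52), mt-Co1 (0.32) and mt-Nd4 (0.19). The call of mt-Nd1 was lost under quantile normalization, that of mt-Co1 and mt-Nd4 also at equal FPKM sums. Quantile normalization gives equal values to a gene that keeps its rank in every library. It set the difference of all 3 to 0.0, so it could not decide for them. The median of the list, 0.02, turned to -0.10 under quantile normalization and to -0.16 at equal FPKM sums. Among 14 complex I assembly factors, 6 were lower, led by Foxred1 (-0.72) and Ndufaf4 (-0.64), and Ndufaf7 (0.36) was higher. All 19 enzymes of the TCA cycle were within the margin, with 8 higher, led by citrate synthase Cs (0.38), and 4 lower, led by Dld (-0.36), but at equal FPKM sums 1 was higher and 10 lower.

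**Figure D4:**
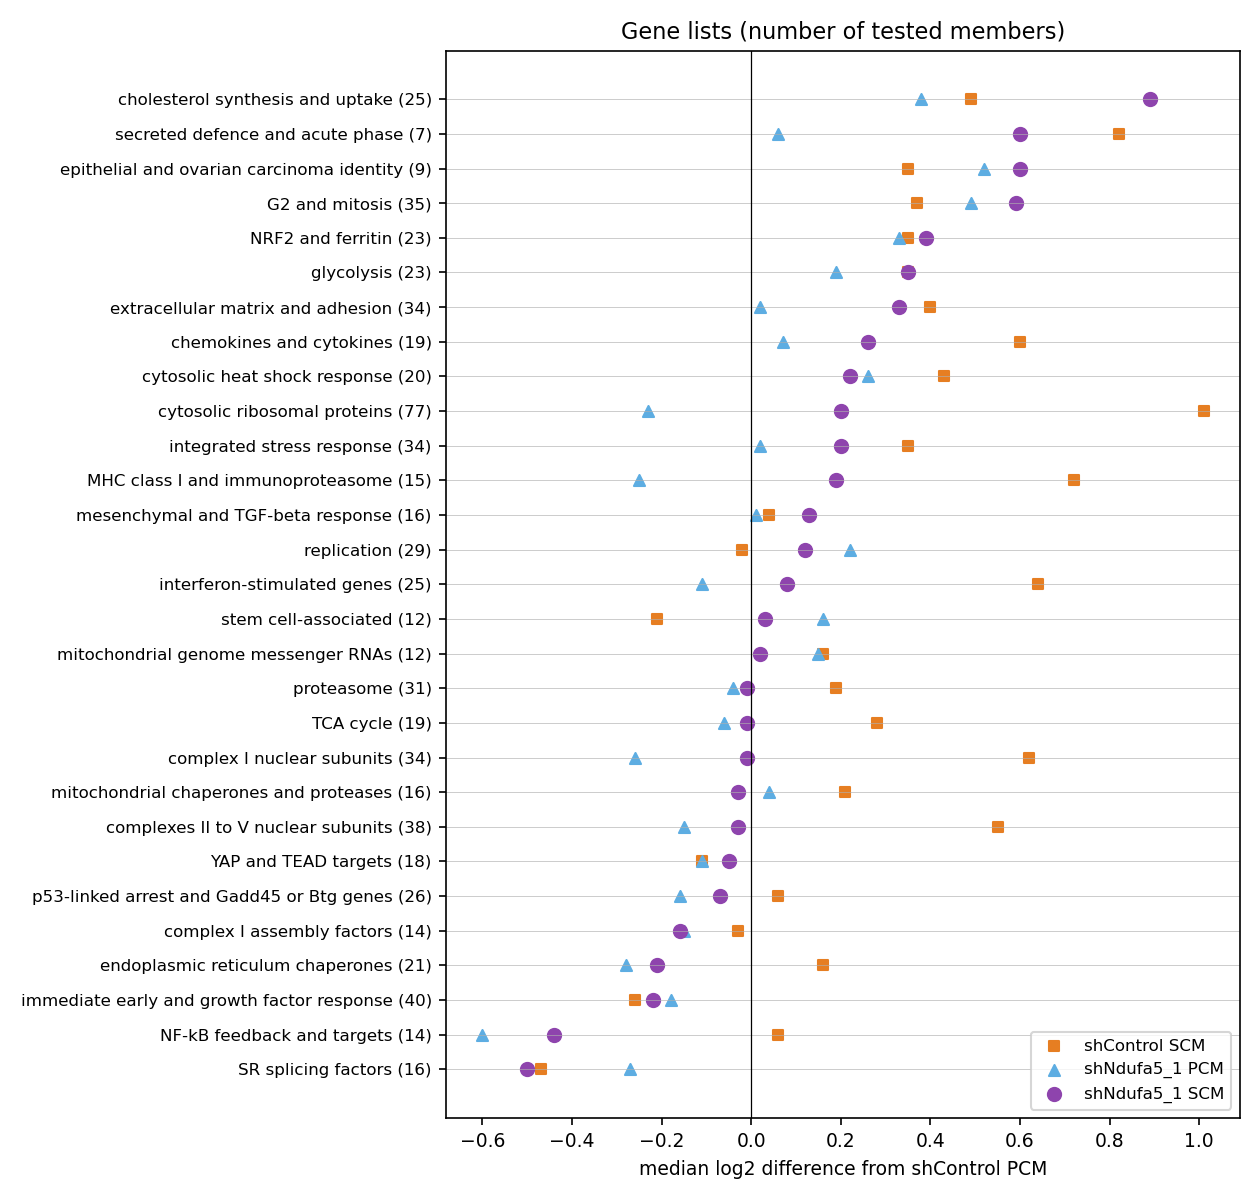
Median difference from shControl PCM on log2(FPKM + 1) over the tested members of each gene list, for shControl SCM (orange squares), shNdufa5_1 PCM (blue triangles) and shNdufa5_1 SCM (purple circles). The lists are ordered by the purple circles, from cholesterol synthesis (0.89) to SR splicing factors (-0.50), and all points share the shControl PCM libraries. Medians of the purple circles near 0 can change sign with the scaling.

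Interferon and antigen presentation genes returned unevenly. Of 25 interferon-stimulated genes, 9 were higher, 7 lower and 9 not called, with 11 within the margin and a median of 0.08, against 0.64 and -0.11. At equal FPKM sums 3 were higher and 7 lower, and the median turned to -0.06. Of the 9 that SCM had raised at least 2-fold in shControl, 3 were back at the level (Irf7, Ifitm3 and Xaf1), 3 still off (Bst2, Ifitm1 and Lgals3bp), 1 past it (Ifi27) and 2 undetermined (Isg15 and Rtp4). Ddx58, which encodes the RNA sensor RIG-I, was lower at 1.84 to 2.17 FPKM against 4.95 to 5.77 FPKM (-1.07), and shControl SCM had not moved it (0.12). The kinase Eif2ak2 (-0.32) was lower, while Bst2 (0.43), the tether of budding viruses, and Ifitm1 (1.11) were higher. Among 15 genes of class I presentation and the immunoproteasome, 7 were higher and 3 lower, with medians of 0.19, 0.72 and -0.25, and at equal FPKM sums 1 was higher and 4 lower, with a median of 0.01. The peptide transporter subunit Tap1 (-0.42), the loading chaperone Calr (-0.56) and the light chain B2m (-0.18) were lower, and H2-T23 (0.40) was higher, in a family whose members share sequence.

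The promoter letters of these lists are shown because 19 of the 25 interferon-stimulated genes and 12 of the 15 presentation genes were called higher in shControl SCM, where 31.7% of all genes were. A letter search covered both strands of RefSeq promoters (250 bases before to 50 after the start, GRCm38.p6), with a gene counted if any of its promoters matched. The interferon element, GAAA and GAAA split by any 2 bases, was found in 9 of 22 matched interferon-stimulated genes. It was found in 5 of 14 matched presentation genes, against 3.29% of the 8124 tested genes matched to promoters. The stretches upstream of the start of Isg15 (chr4:156200850-156200921, minus strand), Bst2 (chr8:71537562-71537627, minus strand) and B2m (chr2:122147523-122147582, plus strand) are printed on the gene's strand, with the matching letters in capitals.
Isg15: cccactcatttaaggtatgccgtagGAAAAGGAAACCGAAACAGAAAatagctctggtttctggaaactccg
Bst2: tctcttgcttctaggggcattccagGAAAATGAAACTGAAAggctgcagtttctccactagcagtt
B2m: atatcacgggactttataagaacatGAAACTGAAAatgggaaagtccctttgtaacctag
In Isg15 the capitals hold 3 overlapping matches and in Bst2 2. These 3 genes were undetermined, off and lower in shNdufa5_1 SCM. A match is a run of letters and says nothing of binding.

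Cytokine and NF-kB feedback genes were called in both directions. Of 19 chemokine and cytokine genes, 11 were higher and 4 lower, with medians of 0.26, 0.60 and 0.07, and at equal FPKM sums 8 were higher and 4 lower. After Il33 and Ccl7, the largest rises were Tslp (1.51), an epithelial cytokine that acts on dendritic cells, at 1.76 to 1.96 FPKM against 6.3 to 8.15 FPKM, and Cx3cl1 (1.07), the chemokine fractalkine. Cxcl2 (0.89) and Ccl2 (0.88), chemokines for neutrophils and monocytes, were also higher. Lower were Ccl5, Csf1 (-0.91), the macrophage growth factor, Cxcl10 (-0.69), an interferon-induced chemokine, and Csf2. Of 14 NF-kB feedback and target genes, 9 were lower and 2 higher, with medians of -0.44, 0.06 and -0.60. Besides Nfkbia and Nfkbie, the adaptor Traf1 (-1.29), the ubiquitin-editing enzyme Tnfaip3 (-0.91), Relb (-0.76), Nfkbib (-0.73) and Nfkb2 (-0.61) were lower, and Nfkbiz (0.80) and Tnfaip2 (0.43) were higher. Traf1 lay at 16.1 to 18.1 FPKM in shControl PCM, 9.42 to 9.84 in shControl SCM, 6.39 to 7.25 in shNdufa5_1 PCM and 5.93 to 6.62 in shNdufa5_1 SCM. The letters of an NF-kB site, GGG, any 2 bases and then TTTCC, were in 4 of 10 matched genes of this list (Nfkb2, Nfkbia, Rel and Tnfaip3). The share was 1.9% of the 8124 tested genes matched to promoters. The stretch before Nfkbia, the member that fell most, is at chr12:55492648-55492701 on the minus strand, with a match on its opposite strand in capitals.
Nfkbia: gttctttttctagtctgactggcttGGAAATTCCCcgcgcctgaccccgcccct

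Immediate early genes moved both ways. Of 40, 20 were lower and 12 higher, with medians of -0.22, -0.26 and -0.18, and at equal FPKM sums 24 were lower and 9 higher. The AP-1 subunits Jun, Fosl1 and Fosl2 were lower: Jun at 33.4 to 36.4 FPKM against 11.3 to 12.7 FPKM, Fosl1 (-1.27) at a mean of 258 ± 6.18 against 106 ± 2.95 FPKM (SD, n = 3), and Fosl2 (-1.04) at 23.5 to 24.9 against 11 to 11.3. Myc (-0.95), a growth-promoting transcription factor, lay at 127 to 137 FPKM against 64.1 to 70.8 FPKM. Of the other AP-1 subunits, Junb (-0.18) and Jund (-0.21) were lower and Fosb (0.41) was higher. Ier3 (0.92), the EGF receptor ligand Areg (0.87) and Etv5 (0.73) were higher too. Fos (-0.23) and Egr1 were not called.

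Of 26 genes of the p53-linked and Gadd45 or Btg list, 13 were lower and 10 higher, with a median of -0.07, and at equal FPKM sums 13 were lower and 6 higher. All of Gadd45b, Gadd45g, Gadd45a (-0.64), Btg1 (-0.71), Btg2 and Btg3 (-0.37) were lower, as was the cyclin Ccng1 (-0.67). Cell cycle inhibitors went both ways: Cdkn2b (0.73), Cdkn2a (0.45) and Cdkn1a (0.17) were higher and Cdkn1b (-0.39) was lower. Mdm2 (0.03), a classical p53 target, was not called.

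Genes of G2 and mitosis were higher in 30 of 35 cases and lower in 0, with medians of 0.59, 0.37 and 0.49. At equal FPKM sums 24 were higher and 2 lower. Ccnb2, a mitotic cyclin, lay at 35.5 to 37.7 FPKM in shControl PCM, 62.0 to 63.8 in shControl SCM, 63.5 to 68.4 in shNdufa5_1 PCM and 81.3 to 93.3 in shNdufa5_1 SCM, a difference of 1.21 ± 0.05 (adjusted p = 6.93e-11). Ccna2 (1.05), the cyclin of S phase and G2, the motor Kif2c (1.01) and the kinase Aurkb (0.91) were also higher, while the checkpoint gene Mad2l1 (-0.13) was not called. Replication genes were higher in 13 of 29 and lower in 4, with a median of 0.12 that turned to -0.06 at equal FPKM sums, where 6 were higher and 6 lower. The helicase subunits Mcm7 (0.68) and Mcm2 (0.58) were higher, and Orc5 (-0.91) and Orc2 of the origin recognition complex were lower.

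Cholesterol synthesis and uptake genes were all called higher, 25 of 25, with medians of 0.89, 0.49 and 0.38, and 22 of the 25 were also called higher at equal FPKM sums. Acat2 (chr17:12942890-12960747, minus strand) lay at 11.3, 10.9 and 9.51 FPKM in shControl PCM, at 18.9 to 24.4 in shControl SCM, at 18.8 to 21.5 in shNdufa5_1 PCM and at 41.1, 38.1 and 40.3 FPKM in shNdufa5_1 SCM. The groups with 1 of the changes overlapped each other and neither end. Mvd, mevalonate diphosphate decarboxylase, behaved otherwise in PCM: it lay at 9.52 to 10.7 FPKM in shControl PCM and 10.7 to 12.1 in shNdufa5_1 PCM, then 19.6 to 22.9 in shControl SCM and 28.7 to 29.0 in shNdufa5_1 SCM. Idi1 (1.19), an isomerase of the pathway, and Insig1 (1.17), the retention factor of the sterol sensor, were higher, and the smallest differences were Sc5d (0.28) and Hsd17b7 (0.36). The 4 genes of the list that SCM had raised at least 2-fold in shControl were all still off the level. A sterol element of the letters TCACNCCAC was found in 1 of 17 matched genes, Hmgcs1, against 1.32% of the 8124 tested genes matched to promoters.

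Glycolysis genes were higher in 15 of 23 and lower in 4, with medians of 0.35, 0.35 and 0.19, and at equal FPKM sums 10 were higher and 4 lower. Aldoc (1.57), the liver phosphofructokinase Pfkl (1.43) at 7.82 to 8.09 FPKM against 21.7 to 24.2 FPKM, Pfkm (0.83) and Pfkp (0.80) were higher, and Eno2 (-0.77) and Pfkfb3 (-0.51) were lower. Aldoa stands under 2 identifiers with differences of 0.61 and -0.52, and Gapdh (-0.77, not called) has many pseudogenes, so these are uncertain. Of 23 NRF2 target and ferritin genes, 16 were higher and 3 lower, with a median of 0.39, and at equal FPKM sums 12 were higher and 4 lower. The glutathione genes Gsta4 (0.95), Gsr (0.88) and Gstm1 (0.88) and the cystine carrier Slc7a11 (0.67) were higher, and heme oxygenase Hmox1 (-0.25) was lower.

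The stress lists differed from each other. Of 20 cytosolic heat shock genes, 12 were higher and 4 lower, with medians of 0.22, 0.43 and 0.26, and at equal FPKM sums 6 were higher and 4 lower. Hsp90ab1 (0.99) lay at 654 to 675 FPKM against 1315 to 1330 FPKM, and the co-chaperone Dnajb1 (-0.50) was lower. Endoplasmic reticulum chaperones were lower in 14 of 21 and higher in 3, with medians of -0.21, 0.16 and -0.28. Hspa5 (chr2:34771970-34777547, plus strand), the chaperone BiP, lay at 712, 724 and 715 FPKM in shControl PCM, at 726 to 753 in shControl SCM, at 319 to 325 in shNdufa5_1 PCM and at 316, 320.0 and 328 FPKM in shNdufa5_1 SCM. The hairpins stood far apart in both media, and shNdufa5_1 PCM and SCM overlapped. The difference of shNdufa5_1 SCM from shControl PCM was -1.16 ± 0.02 (limma adjusted p = 1.73e-14). Dnajb9 (-1.29), Sdf2l1 (-1.09) and Xbp1 (-1.13), the transcription factor of the unfolded protein response, were lower too, whereas the oxidase Ero1l (0.52) was higher. Of 34 integrated stress response genes, 19 were higher and 6 lower, with medians of 0.20, 0.35 and 0.02, but at equal FPKM sums 10 were higher and 12 lower, with a median of 0.01. Ddit4 (1.28), an inhibitor of mTORC1, Shmt2 (0.78), a mitochondrial enzyme of one-carbon metabolism, and Atf5 (0.60) were higher, but Ddit3 (-0.69), Ppp1r15a (-0.64) and Atf4 (-0.39), the central factors of that response, were lower. Of 16 mitochondrial chaperones and proteases, 6 were higher, led by the protease Oma1 (0.55), and 5 lower, led by Yme1l1 (-0.52), and at equal FPKM sums 1 was higher and 6 lower.

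Splicing factors were mostly lower. Of 16 SR proteins and their kinases, 13 were lower and 2 higher, with medians of -0.50, -0.47 and -0.27. Tra2b (-1.28) lay at 22 to 24.7 FPKM in shControl PCM, 10.9 to 11.6 in shControl SCM, 13.2 to 14.4 in shNdufa5_1 PCM and 9.06 to 9.26 in shNdufa5_1 SCM. Srsf3 and Srsf7 (-0.93) followed, and Clk2 (0.20) and Srsf9 (0.18) were higher, although neither of these was so under equal FPKM sums, where 0 of 16 were higher. Of 31 proteasome subunits, 28 were within the margin, with 10 higher and 11 lower, and at equal FPKM sums 2 were higher and 15 lower.

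Matrix and identity genes were called in both directions. Of 34 extracellular matrix and adhesion genes, 24 were higher and 4 lower, with medians of 0.33, 0.40 and 0.02, and at equal FPKM sums 16 were higher and 6 lower, with a median of 0.17. Besides Col6a1, Col3a1 (1.28), a fibrillar collagen, Col6a2 (1.18), Itga6 (1.17), a laminin receptor subunit, and Thbs1 (1.01) were higher, and Fbln2 (-0.46) was lower. Itga6 lay at 37.1 to 37.9 FPKM in shControl PCM, 43.0 to 45.9 in shControl SCM, 87.2 to 87.9 in shNdufa5_1 PCM and 82.5 to 87.3 in shNdufa5_1 SCM. The keratins Krt18 (0.98), Krt7 (0.98), Krt8 (0.80) and Krt19 (0.78), intermediate filaments of simple epithelia, were higher, with Krt18 at 462 to 492 FPKM against 920.0 to 966 FPKM. The lineage factor Pax8 (-0.41) and the tight junction genes Cldn3 (-0.31) and Tjp1 (-0.22) were lower. In the mesenchymal list 8 of 16 were higher and 5 lower, with a median of 0.13 that turned to -0.05 at equal FPKM sums, where 5 were higher and 5 lower. S100a4 (0.97), Vim (0.95) and Snai1 (0.94) were higher, with S100a4 losing its call without shControl PCM replicate 3 (0.70) or shNdufa5_1 SCM replicate 2 (0.73), whereas Snai2 (-0.79) and Zeb2 (-0.73) were lower. Of 18 YAP and TEAD targets, 6 were higher, such as Ctgf (0.77), and 7 lower, such as Cyr61 (-0.64), and at equal FPKM sums 2 were higher and 10 lower. Of 12 stem cell-associated genes, 4 were higher, such as Aldh1a3 (0.70), and 5 lower, such as Sox9 (-0.46). Secreted defence genes were higher in 4 of 7 (Slpi, Wfdc2 at 0.98, Lcn2 and Cd14 at 0.60) and lower in 1, Clu (-0.17).

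Gene properties differed between the sets. Median GC content was 49.8% over all genes tested, 51.8% among those called higher and 48.5% among those called lower. Across genes, which are not independent replicates, the difference had a Spearman correlation of 0.17 with GC content and -0.01 with exon length (n = 11074). The SCM-responsive genes were short and rich in GC in both classes: the median exon length was 1734 bases for genes back at the level and 1855 for genes still off, against 4187 over all, and the median GC content was 53.7% and 53.4%. The classes lay further apart in abundance: the median of the mean FPKM was 150 for genes back at the level and 21.2 for genes still off. Over all genes tested it was 8.8. A gene was back only where its interval lay within the margin, which is harder to meet for low genes with wide intervals. The part of abundance in the sorting was not tested beyond the filters on low values. The part of GC content and length in the return was not tested beyond the correction given with the other settings.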

How the data were processed

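Polyadenylated RNA of 18 KPCA.B samples was made into libraries using NEBNext reagents, per the labels' protocols. The authors deposited FPKM values for 54532 Ensembl mouse genes. The submitters' processing notes name the aligner STAR 2.6.1, DESeq2 and the mouse builds mm10 and GRCm38. Gene lengths, the FPKM denominator and the strand setting are not stated there or in the labels, so antisense and near-identical genes are uncertain. GENCODE vM21 (GRCm38) held 99.9% of the identifiers and gave their positions.

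The step between low FPKM values gave a depth of 13.8 to 38.9 M fragments per library (M for mega). Of values of at most 20 fragments, 99.5 to 99.8% were whole within 0.1 fragments. Median-ratio factors were 1.008 in every library.

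Values were tested as log2(FPKM + 1), which understates the change of low genes, in limma 3.58.1 (R 4.3.3) with 6 group coefficients over 18 libraries, trended moderation, two-sided tests and Benjamini-Hochberg adjustment over the 11084 genes that averaged at least 1 FPKM. Calls are at an adjusted p under 0.05. SE and intervals come from this fit. On simulated data with 200 of 11084 genes changed in this comparison, a log2 change of 0.5 was recovered in 74.5% with 4 false calls. A change of 1 was recovered in 97% with 10, and 88.7% of unchanged genes lay within the margin in the first. The simulated noise was normal and independent, with a single SD per gene and no other difference between groups. The simulation therefore could not show errors from the scaling or from shifts shared by many genes.

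Named genes were Ndufa5, the 15 largest rises and falls among called genes without overlap, the 8 strongest SCM responses per class and direction (4 for undetermined), and up to 4 called and 2 abundant uncalled members per list; names of clones, pseudogenes and short RNAs were passed over. Other list members and responsive genes named with a single difference, and Bst2, were chosen after their values were seen. The members and lists were chosen with earlier results of these data known. Replicate numbers did not pair libraries: over 45 same-numbered pairs, deviations from group means correlated at -0.09 to 0.06. Promoter sequences are from RefSeq. Some named members of the lists are not reported here. Alternatives were a replicate block, other pseudocounts, filters, scalings, margins, a correction for GC and length, and leaving out each library.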

Additional observations from a re-analysis of the deposited data

Results flagged for a closer look

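For 10 of the 212 named genes the answer to SCM had opposite signs in shNdufa5_1 and in shControl, with limma calling both responses and their difference. Over all 11084 genes, SCM had 61.9% called in shControl, and 2493 called higher and 2194 lower in shNdufa5_1. The share of all genes with opposite signs was not counted, so whether 10 is many cannot be told. Values are the response in shNdufa5_1 minus that in shControl on log2(FPKM + 1). Ccl5 had -1.94, since SCM raised this chemokine in shControl (1.33) and lowered it in shNdufa5_1 (-0.60). Csf2, the cytokine GM-CSF, had 1.74 and the immediate early factor Egr1 had 1.33, both lowered by SCM in shControl (-1.22 and -1.01) and raised in shNdufa5_1 (0.52 and 0.32). Smaller differences of that direction were found for Xbp1 (0.57), Nfkbia (0.54) and the AP-1 subunit Fosl1 (0.47). Raised in shControl and lowered in shNdufa5_1 were the stress factor Ddit3 (-0.74), the helicase subunit Mcm2 (-0.62) and the mitochondrial messenger RNAs mt-Nd2 (-0.53) and mt-Nd4 (-0.45). The starting levels in PCM differed between the hairpins for these genes as well.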

How the results depend on the processing

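Against 2930 genes higher and 2990 lower, with 83 of the 291 SCM-responsive genes back at the level and 135 still off, equal FPKM sums gave 1385 higher and 4271 lower, with 250 back and 661 off of 1006 responsive genes. Equal sums without Gm23935, chosen after seeing the data, gave 132 back and 245 off of 435, with 2388 higher and 3761 lower. Removing the trend with GC and length gave 34 back and 75 off of 158. Quantile normalization gave 19 back (90 off, of 175), a pseudocount of 0.1 gave 239 off (97 back, of 487) and a margin of 0.3 gave 38 back (161 off). Taking genes moved by at least 0.5 as responsive gave 1144 back and 918 off of 2384. The counts back and still off therefore depend on the scaling and on both thresholds, and the cause was not tested; at the margin of 0.3 the responsive genes were the same 291. Filters on low values and a fit of the compared groups alone left all 4 counts within 1.5 times. Leaving out 1 library at a time gave 2642 to 2727 higher, 2690 to 2735 lower, 67 to 92 back and 121 to 155 off, and Ndufa5 ran from -1.52 to -1.27. With the replicate number as a block, 2921 were higher, 2975 lower, 85 back and 134 off, and Ndufa5 was -1.39; the numbers do not pair the libraries. Under quantile normalization Rplp1 (-0.22), Rplp0 (-0.27), Hspd1 (-0.13) and Pgam1 (-0.12), not called in the reported fit, became called lower. Of 212 named genes, 148 were called, 18 of them lost the call in at least 1 setting, 28 others gained one and 163 kept side and direction in every setting. Depth limits genes near 1 FPKM, where the interval often exceeds the margin.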
